A study of Homo sapiens with 12 samples.

Results

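The 10 genes LYZ, CD14, ITGAM, ITGAX, CD36, MNDA, CSF1R, FCGR1A, S100A8 and S100A9, which mark cells on the way to mature monocytes, were followed through 12 RNA-seq libraries of MOLM-14 cells. They were found by symbol, and each matched 1 Ensembl identifier among the 61906 genes in the deposited count tables. MOLM-14 is a human acute myeloid leukemia line of monocytic type, in which KMT2A is rearranged and FLT3 carries an internal tandem duplication, so all 4 groups share these lesions. In the knockdown experiment, shControl cells carried a lentiviral control shRNA and shDDX5 cells a lentiviral shRNA against DDX5, an RNA helicase, and both were collected 96 hours after infection. The compound experiment set 6 hours in 100 nM RX-5902, a small molecule that targets the phosphorylated form of DDX5, against 6 hours in 0.1% DMSO. There were 3 libraries per group, labelled as biological replicates. The labels name 1 shDDX5 construct, so the loss of DDX5 and other effects of that shRNA cannot be told apart. Time, infection and treatment also differ between the experiments, and the 2 experiments share no control library.

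Monocytes arise from myeloid progenitors that lose the expression of progenitor factors and gain surface receptors and secreted defence proteins. CSF1R receives the growth signal for monocytes and macrophages, CD14 presents bacterial lipopolysaccharide to TLR4, FCGR1A binds IgG with high affinity, and CD36 takes up lipids and oxidised lipoproteins. ITGAM (CD11b) and ITGAX (CD11c) are alpha chains that each pair with the beta chain ITGB2 to form adhesion and complement receptors. LYZ is the secreted, bacteria-lysing enzyme lysozyme, MNDA is a nuclear protein of the PYHIN family, and S100A8 and S100A9 form calprotectin, a calcium-binding complex of the cytosol of monocytes and neutrophils.

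The knockdown libraries held 17603589 to 19674098 counts each, the compound libraries 20264250 to 20367575, and mitochondrially encoded genes took 5.19 to 10.3% of them. Levels are given in CPM, counts relative to the TMM-scaled size of the library, on 1 scale over all 12 libraries. The library shDDX5 replicate 1 stood apart: its chi-square per gene was 52.5 and 52.7 against the other shDDX5 libraries, and 1.76 to 6.62 for every other pair of replicates. It held relatively more of short transcripts, with a fitted excess of 0.31 log2 units at an exon length of 800 bases, against 0.14 in each of the other shDDX5 libraries and -0.14 to -0.12 in shControl. DDX5 itself lay at 761, 726 and 735 CPM in shControl and at 166, 166 and 163 CPM in shDDX5, 4.55-fold lower, which matches the labels. In the compound experiment DDX5 was at 833, 844 and 833 CPM with DMSO and at 1104, 1060 and 1022 CPM with RX-5902, a rise of 0.31 ± 0.04 (SE) in log2. Among markers of other cell types, the red cell genes HBA1, HBB and HBG1, the neutrophil genes FCGR3B, CEACAM8 and MMP8 and the T cell gene CD3G had no read in any library. The summed T and NK cell markers, mostly NKG7, moved with the treatments, from 71.1 to 76.6 CPM in shControl to 111 to 170 in shDDX5, and from 14.9 to 16.0 with DMSO to 23.6 to 26.2 with RX-5902. Other members went against this sum in the knockdown, where CD3D fell by 2.54 ± 0.44 (SE) and GNLY by 0.38 ± 0.12 in log2. The neutrophil markers, mostly CSF3R, summed to 82.6 to 91.8 CPM in shControl, 105 to 112 in shDDX5, 53.8 to 56.5 with DMSO and 50.5 to 51.2 with RX-5902. Of these markers MMP9 and S100A12 fell in the knockdown, by 1.92 ± 0.16 and 1.99 ± 0.25 in log2. Megakaryocyte markers went from 4.52 to 5.67 CPM in shControl to 1.24 to 1.38 in shDDX5. In the same groups mast cell and eosinophil markers, mostly EPX, went from 1.04 to 1.15 CPM to 8.54 to 10.7. Fibroblast and epithelial markers went from 5.02 to 5.77 CPM in shControl to 12.4 to 13.3 in shDDX5. Of these, KRT8 went from a mean of 3.44 to 6.33 CPM and the collagen gene COL1A1 from 0.582 to 4.86 CPM. The erythroid sum, mostly the transferrin receptor TFRC, went from 549 to 605 CPM in shControl to 330 to 441 in shDDX5, and from 588 to 589 with DMSO to 365 to 385 with RX-5902. B cell markers stayed under 4 CPM and dendritic cell markers under 3 CPM in every library. The part of these markers in the results was not tested.

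All 10 genes changed in the knockdown. LYZ, MNDA, CD36, ITGAM, CSF1R and FCGR1A rose and CD14, S100A9, S100A8 and ITGAX fell, by edgeR's quasi-likelihood test with Benjamini-Hochberg adjustment over the 14463 genes tested and a threshold of 0.05. RX-5902 changed 8 of the 9 genes that could be tested, of which ITGAX, ITGAM, CD36 and CSF1R rose and S100A8, MNDA, S100A9 and LYZ fell. So many genes were called in both experiments that these counts have to be read against the background. In the knockdown 56.7% of all tested genes were called, 28.4% as risen and 28.3% as fallen, and in the compound experiment 64.1% were called, 32.2% as risen and 31.9% as fallen. No shDDX5 library overlapped a shControl library for any of the 10 genes, which held for 66.0% of all genes tested, and 8 of the 9 genes did not overlap between RX-5902 and DMSO, against 67.5%. The median log2 change of the 10 was 0.56 in the knockdown, against 0.00 over all genes, and that of the 9 was 0.02 in the compound experiment, against 0.01. In these bulk libraries a change in the share of cells of one type and a change in RNA per cell cannot be told apart.

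The genes fell into different patterns across the experiments. ITGAM, CD36 and CSF1R, 3 of the 9 genes tested in both, rose in both, as did 10.4% of the 13233 genes tested in both. S100A8 and S100A9 fell in both, as did 12.8%. LYZ and MNDA rose in the knockdown and fell with RX-5902, while ITGAX fell in the knockdown and rose with RX-5902, and opposite calls were made for 16.0% of genes. FCGR1A rose in the knockdown with no call for RX-5902, and CD14 fell in the knockdown and had too few reads to be tested in the other experiment.

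**Figure D1:**
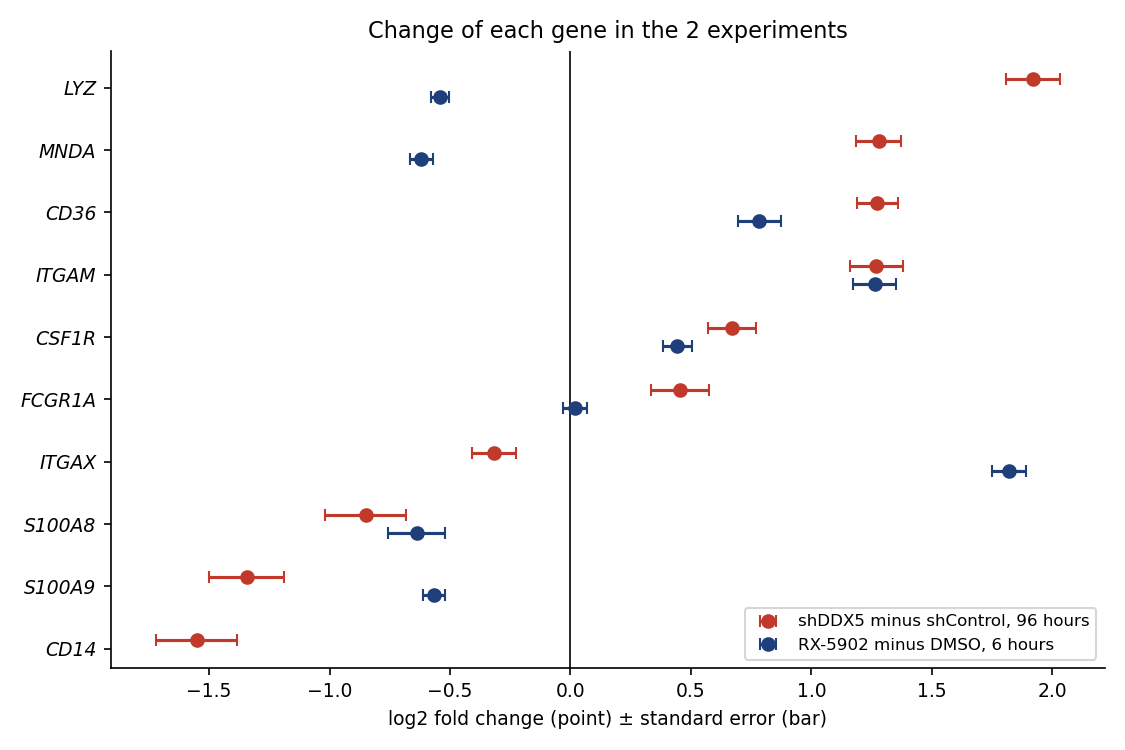
Log2 fold change of each gene (horizontal axis, points with bars for 1 standard error) in the knockdown (red, shDDX5 minus shControl) and the compound experiment (blue, RX-5902 minus DMSO), ordered by the knockdown change. LYZ, MNDA and ITGAX lie on opposite sides of 0 in the 2 experiments, ITGAM lies at 1.27 and 1.26, and CD14 has no blue point because it was not tested with RX-5902.

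The DNA just upstream of the genes that moved together is shown first, since it lets the shared letters be seen. RefSeq windows on GRCh38.p14, from 250 bases before a transcript start to 50 after it, were at hand for 8 of the 10 genes (not for LYZ and ITGAX), with 16 windows in all because several genes have more than 1 start. The 250 bases before the start are printed 5′ to 3′ on the gene's own strand, in lower case, with motif letters in capitals. The S100A8 sequence is chr1:153391074-153391323 on the minus strand and the S100A9 sequence is chr1:153357604-153357853 on the plus strand, and these genes fell in both experiments.
S100A8: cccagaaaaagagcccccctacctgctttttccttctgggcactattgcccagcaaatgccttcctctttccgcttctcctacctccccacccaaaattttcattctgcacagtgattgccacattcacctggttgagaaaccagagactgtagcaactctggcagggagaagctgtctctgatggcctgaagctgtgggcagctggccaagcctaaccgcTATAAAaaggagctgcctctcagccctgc
S100A9: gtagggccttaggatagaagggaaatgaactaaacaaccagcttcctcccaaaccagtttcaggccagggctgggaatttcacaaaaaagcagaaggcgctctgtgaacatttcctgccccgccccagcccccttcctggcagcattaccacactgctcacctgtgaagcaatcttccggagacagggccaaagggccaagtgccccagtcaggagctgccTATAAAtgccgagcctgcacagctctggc
Both hold the capitals TATAAA, the letters of a TATA box, with the first letter at -29 relative to the start. The S100A8 window is 1 of 3 for that gene. Another overlaps it and holds the same TATAAA of the genome, there at -126 from its own start, and the remaining window holds none. This motif was added after the sequences had been seen, and 11.5% of the 35116 RefSeq windows hold it on either strand. Among all windows of the 10 genes 6 of 16 held it, with the S100A8 letters counted in both of their windows. It was also found in CD36 and MNDA, which did not fall in both experiments. The CSF1R sequence is chr5:150113366-150113615 on the minus strand and the CD36 sequence is chr7:80645999-80646248 on the plus strand, and both genes rose in both experiments. They were chosen for their motif match: the CSF1R window is 1 of 2 for that gene and the CD36 window 1 of 6, and the other windows of these genes have no AP-1 match. Counts are per gene, so which of these starts the cells used was not measured.
CSF1R: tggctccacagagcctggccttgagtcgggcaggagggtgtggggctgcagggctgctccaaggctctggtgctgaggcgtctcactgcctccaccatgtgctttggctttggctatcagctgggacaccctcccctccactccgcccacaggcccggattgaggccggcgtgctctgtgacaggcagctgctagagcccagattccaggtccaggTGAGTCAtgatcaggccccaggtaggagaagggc
CD36: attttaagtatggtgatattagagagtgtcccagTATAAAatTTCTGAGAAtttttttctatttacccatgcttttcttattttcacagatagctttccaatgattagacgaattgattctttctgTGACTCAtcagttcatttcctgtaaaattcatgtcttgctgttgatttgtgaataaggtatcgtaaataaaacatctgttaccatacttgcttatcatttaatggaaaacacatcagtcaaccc
ITGAM: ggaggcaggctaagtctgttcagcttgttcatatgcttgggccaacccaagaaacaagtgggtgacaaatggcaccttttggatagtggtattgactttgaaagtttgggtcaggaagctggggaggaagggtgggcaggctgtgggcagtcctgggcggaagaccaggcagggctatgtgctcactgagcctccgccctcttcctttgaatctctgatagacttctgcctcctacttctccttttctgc
The ITGAM sequence is chr16:31259725-31259974 on the plus strand, from the third gene that rose in both, and its window matched none of the motifs searched. CSF1R and CD36 each hold a match to the AP-1 motif TGANTCA, with N for any base, as TGAGTCA at -34 in CSF1R and as TGACTCA at -124 in CD36. The CD36 sequence also holds TATAAA at -216 and TTCTGAGAA, a match to the STAT motif TTCNNNGAA, at -208. Over all windows of the 10 genes, searched on both strands, 3 of 16 held an AP-1 match (in CD14, CD36 and CSF1R), against 7.71% of all RefSeq windows, and 3 of 16 a STAT match (in CD14, CD36 and FCGR1A), against 7.66%. The C/EBP letters TTGCNNCAA were found in 1 of the 16 windows, against 1.98% of all windows. The PU.1 letters GAGGAAGT and the NF-kB motif were found in none of the 16, against 2.59% and 0.191%. Both were searched as fixed strings with no free base, so sites with other letters would be missed. With 16 windows and such low shares, finding none says little about these genes. These are matches of letters, and binding was not measured here.

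LYZ had the highest level of the 10 genes in CPM in every group and rose strongly in the knockdown. It lay at 3610, 3490 and 3229 CPM in shControl and at 14347, 12768 and 12522 CPM in shDDX5. Means were 3443 ± 195 and 13212 ± 990 CPM (SD, n = 3), and the rise was 1.92 ± 0.11 (SE) in log2, or 3.78-fold (edgeR adjusted p = 6.7e-06). Lysozyme reads alone made up 0.330 to 0.368% of all counts in shControl and 1.24 to 1.26% in shDDX5, where LYZ ranked 3 or 4 among all genes of a library by counts. With DMSO it lay at 378, 366 and 354 CPM and with RX-5902 at 262, 262 and 250 CPM, so every treated library was lower. That fall was 0.54 ± 0.04 in log2, or 1.46-fold (adjusted p = 3.21e-14). LYZ (ENSG00000090382.7) spans chr12:69348381-69354234 on GRCh38, the build of all gene positions here, and the antisense gene that shares 599 of its exon bases had no read in any library.

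MNDA (ENSG00000163563.8, chr1:158831351-158849506) moved in the same directions as LYZ. Its level was 220, 210 and 214 CPM in shControl and 595, 505 and 489 CPM in shDDX5, a rise of 1.28 ± 0.09 in log2, or 2.43-fold (adjusted p = 1.78e-05). The compound experiment gave 119, 127 and 129 CPM with DMSO and 89.8, 83.3 and 77.1 CPM with RX-5902, a fall of 0.62 ± 0.05 in log2, or 1.54-fold (adjusted p = 3.97e-13). No treated library overlapped a control library in either experiment. The other PYHIN genes tested, the DNA sensors IFI16 and AIM2, did not share this pattern. IFI16 rose in both, by 0.49 ± 0.10 in log2 in the knockdown (adjusted p = 0.00358) and by 0.91 ± 0.05 with RX-5902. AIM2 rose by 2.09 ± 0.10 with RX-5902, from a mean of 3.48 to 15.2 CPM. In the knockdown it was called as fallen by 0.69 ± 0.20, a call lost on leaving out shControl replicate 1 or 2 or shDDX5 replicate 2 or 3 (adjusted p = 0.0660 to 0.0754).

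**Figure D2:**
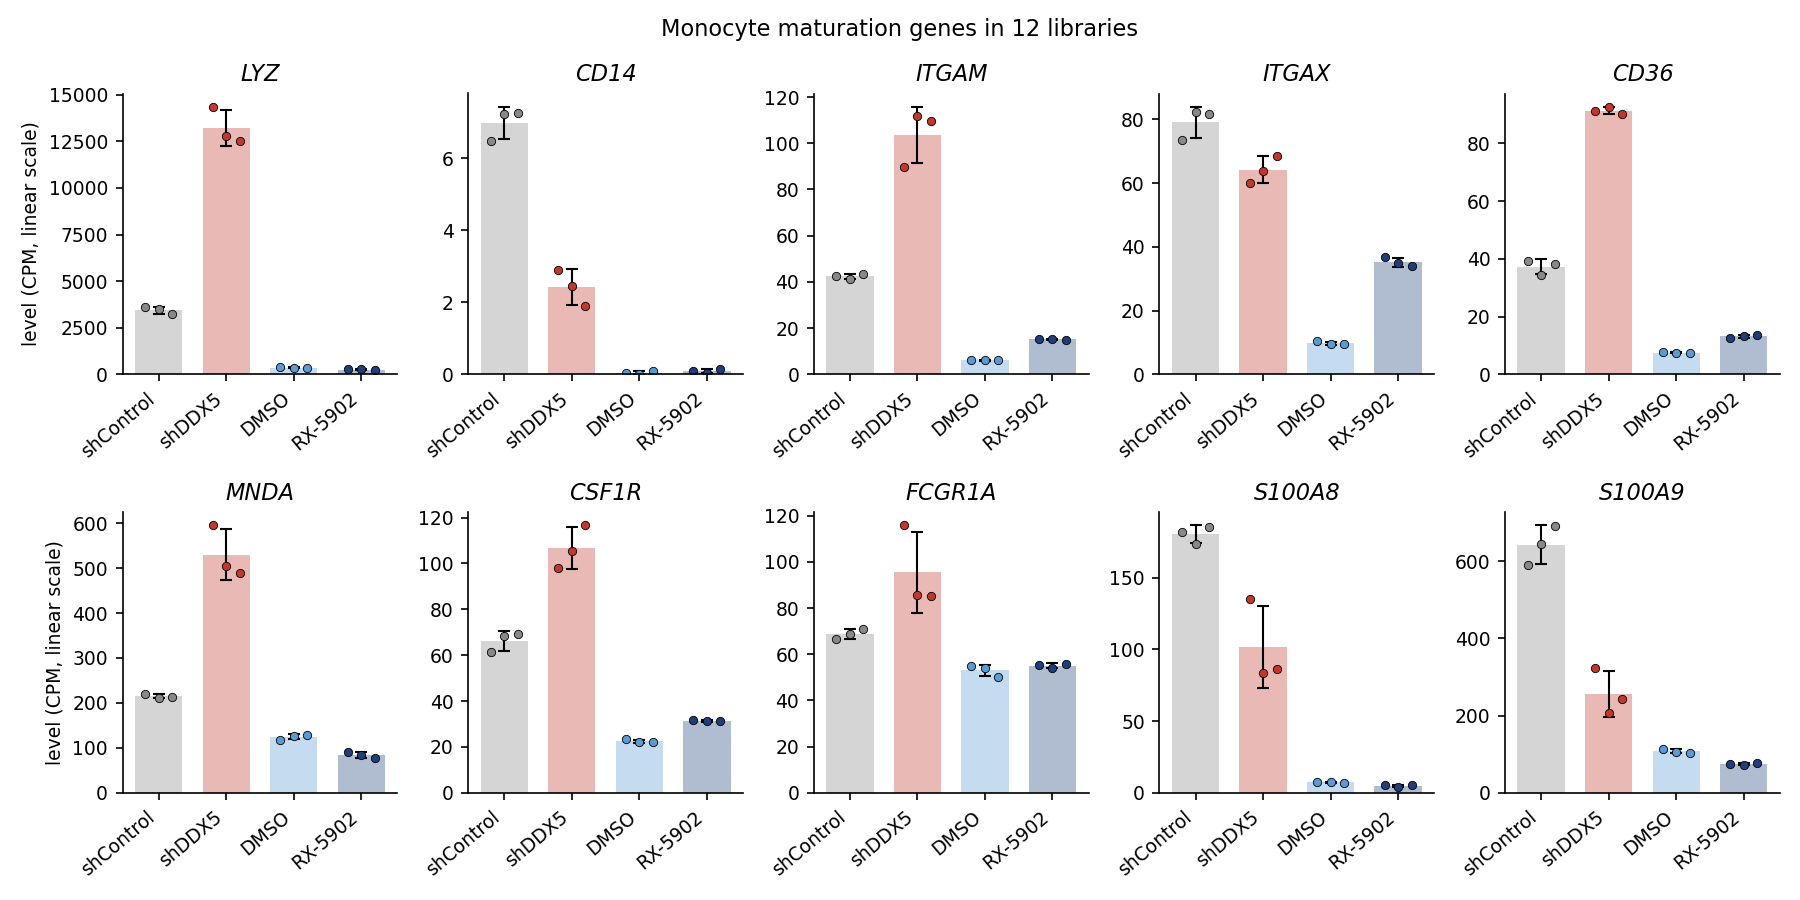
Level of each gene (vertical axes, CPM on a linear scale with its own range in each panel) in the 4 groups, with bars for the mean, whiskers for the SD and points for the 3 libraries. The knockdown libraries lie well above the compound libraries for most genes, and LYZ reaches 14347 CPM in shDDX5 while CD14 stays under 8 CPM in every library.

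The integrin alpha chains ITGAM and ITGAX, neighbours on chromosome 16, went apart. ITGAM (ENSG00000169896.18, chr16:31259967-31332892) was at 42.5, 41.3 and 43.6 CPM in shControl and at 89.6, 112 and 110 CPM in shDDX5, a rise of 1.27 ± 0.11 in log2, or 2.41-fold (adjusted p = 3.98e-05). With DMSO it was at 6.40, 6.15 and 6.00 CPM and with RX-5902 at 15.2, 15.5 and 15.0 CPM, a rise of 1.26 ± 0.09, or 2.40-fold (adjusted p = 2.70e-14). The 2 rises are nearly equal on the log2 scale although the starting levels are far apart. ITGAX (ENSG00000140678.17, chr16:31355134-31382999) was at 73.5, 82.2 and 81.6 CPM in shControl and at 60.1, 63.9 and 68.6 CPM in shDDX5, a fall of 0.32 ± 0.09, or 1.25-fold (adjusted p = 0.0182). With RX-5902 it went from 10.3, 9.40 and 9.39 CPM to 36.8, 34.9 and 34.0 CPM, a rise of 1.82 ± 0.07, or 3.54-fold (adjusted p = 5.89e-21), the largest of the 9 genes tested there. The knockdown call of ITGAX was lost without shControl replicate 2 (adjusted p = 0.0749) or replicate 3 (0.0739), in a test against a fold of 1.2 (0.202), and with a correction for exon length together with the replicate block (0.0549).

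Per kilobase of exon, the ratio of ITGAM to ITGAX within a library was 0.669 ± 0.0465 in shControl and 2.00 ± 0.159 in shDDX5 (SD, n = 3), and 0.793 ± 0.0221 with DMSO and 0.538 ± 0.0212 with RX-5902. The alpha chain with more RNA per kilobase was thus ITGAX in all libraries but those of shDDX5. Their shared beta chain ITGB2 rose by 0.37 ± 0.09 in log2 in the knockdown (adjusted p = 0.00611, and 0.0809 against a fold of 1.2) and fell by 0.53 ± 0.04 with RX-5902 (adjusted p = 1.14e-13). ITGB2 stayed in excess over each of the 2 alpha chains in every library, with a ratio to ITGAM of 12.1 in shControl, 6.59 in shDDX5, 48.6 with DMSO and 14.0 with RX-5902, and to ITGAX of 8.09, 13.1, 38.6 and 7.56 in the same order. ITGAL, the alpha chain of LFA-1, which also pairs with ITGB2, fell by 0.88 ± 0.11 in the knockdown. It rose by 0.25 ± 0.04 with RX-5902, a call lost against a fold of 1.2 (adjusted p = 0.583). ICAM1, a ligand of these receptors, rose by 1.83 ± 0.09 with RX-5902, from a mean of 6.65 to 24.2 CPM, and by 0.80 ± 0.11 in the knockdown.

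**Figure D3:**
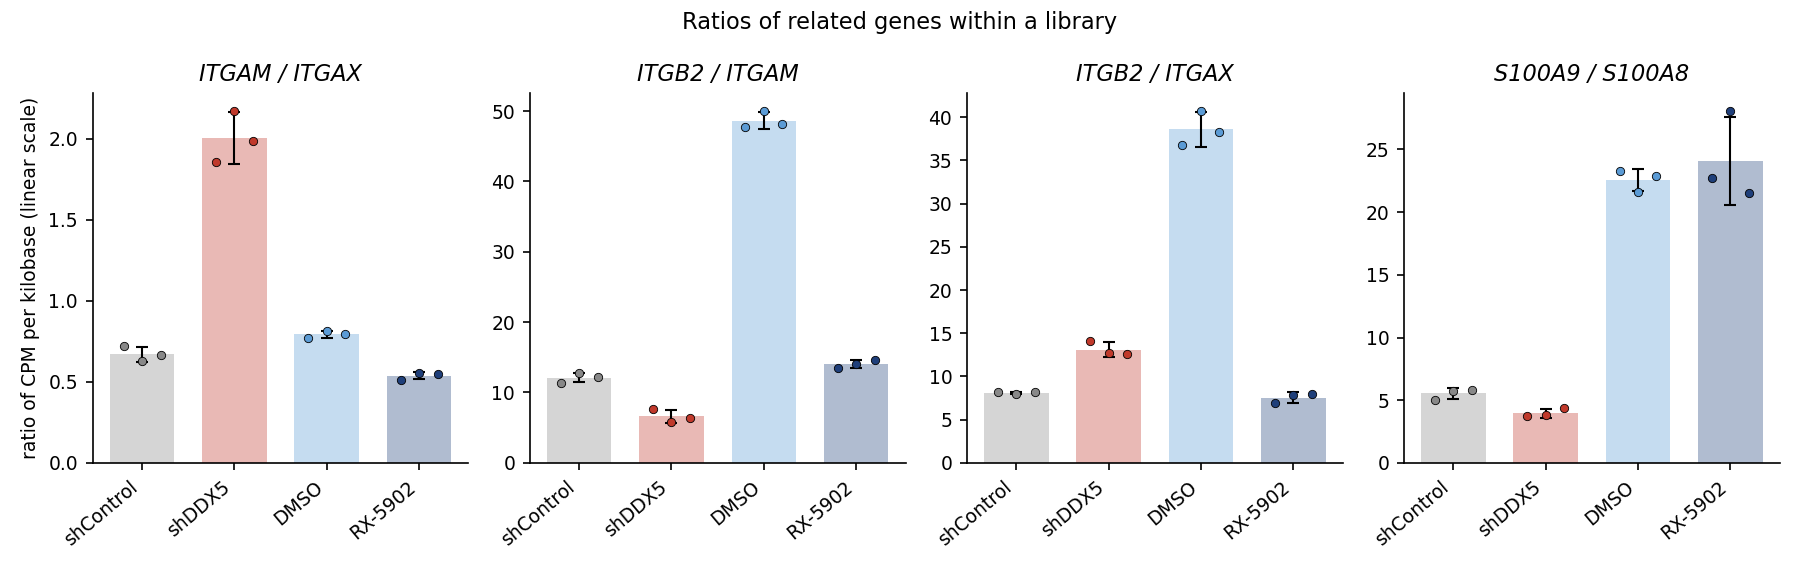
Ratios of CPM per kilobase of exon between related genes within each library (vertical axes, linear scale from 0), with bars for the group mean, whiskers for the SD and points for the 3 libraries. The ratio of ITGAM to ITGAX exceeds 1 in the shDDX5 libraries, at 1.85 to 2.17, and in no other library, and the ratio of S100A9 to S100A8 is several times higher in the compound experiment than in the knockdown experiment.

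CD36 (ENSG00000135218.19, chr7:80369575-80679277) rose in both experiments. It was at 39.3, 34.3 and 38.2 CPM in shControl and at 91.3, 92.6 and 90.0 CPM in shDDX5, a rise of 1.27 ± 0.09 in log2, or 2.42-fold (adjusted p = 1.26e-05). It went from 7.59, 7.48 and 7.36 CPM with DMSO to 12.7, 13.3 and 13.7 CPM with RX-5902, a rise of 0.78 ± 0.09, or 1.72-fold (adjusted p = 1.81e-09). The libraries of each group lay close together and no groups overlapped. FYN, a Src-family kinase that signals from CD36 among many receptors, rose by 0.49 ± 0.05 with RX-5902 and fell by 0.61 ± 0.08 in the knockdown.

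CSF1R (ENSG00000182578.14, chr5:150053291-150113372), the receptor tyrosine kinase for CSF1, also rose in both. Its level was 61.3, 68.3 and 69.2 CPM in shControl and 98.1, 106 and 117 CPM in shDDX5, a rise of 0.67 ± 0.10 in log2, or 1.59-fold (adjusted p = 0.000691). With RX-5902 it went from 23.4, 22.0 and 22.3 CPM to 31.9, 31.3 and 31.2 CPM, a rise of 0.44 ± 0.06, or 1.36-fold (adjusted p = 8.69e-08). Its ligand CSF1 was too low to test in either experiment, with 1 to 6 reads in each knockdown library and none in the compound experiment. TYROBP, an adaptor that carries signals of several myeloid receptors, rose by 1.43 ± 0.18 in the knockdown, from a mean of 83.3 to 228 CPM. Its shDDX5 libraries lay at 306, 180 and 198 CPM, and the rise was at least 1.18 on leaving out each library in turn. TYROBP also rose with RX-5902, by 0.38 ± 0.07, a call lost in 1 fit of all 12 libraries (adjusted p = 0.0528).

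FCGR1A (ENSG00000150337.14, chr1:149782671-149791675) changed least among the genes called as risen in the knockdown. It lay at 66.6, 68.7 and 70.7 CPM in shControl and at 116, 85.5 and 85.1 CPM in shDDX5, with shDDX5 replicate 1 above the rest of its group. The rise was 0.45 ± 0.12 in log2, or 1.37-fold (adjusted p = 0.0120), and 0.31 without that library. The call was lost without shControl replicate 1 (adjusted p = 0.0610) or replicate 2 (0.0526), and against a fold of 1.2 (0.0585). The compound experiment gave 54.9, 53.8 and 50.2 CPM with DMSO and 55.4, 54.0 and 55.8 CPM with RX-5902, a log2 change of 0.02 ± 0.05 (adjusted p = 0.754), and the groups overlapped. FCGR1A has near-identical relatives, so reads may be split between them, and FCGR1BP and FCGR1CP had log2 changes of 0.02 and -0.12 in the knockdown, neither of them called. It shares 177 exon bases with H2BC18, which had 6 to 24 reads in each library of the knockdown experiment against 4127 for FCGR1A over the 3 shControl libraries. FCER1G, the signalling chain that FCGR1A needs at the surface, had a mean of 2.00 CPM in shControl and 2.11 in shDDX5 and was not called in either experiment, with log2 changes of 0.05 ± 0.25 and -0.08 ± 0.12. The inhibitory Fc receptor FCGR2B fell by 2.99 ± 0.22 in the knockdown, from a mean of 4.76 to 0.599 CPM.

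CD14 (ENSG00000170458.15, chr5:140631728-140633700) was the lowest of the 10 in CPM in all 4 groups and was nearly absent from the compound experiment. It had 129, 145 and 146 reads in shControl, or 6.48, 7.23 and 7.26 CPM, and 49, 43 and 36 reads in shDDX5, or 2.90, 2.47 and 1.90 CPM. The fall was 1.55 ± 0.17 in log2, or 2.93-fold (adjusted p = 0.000124), with no overlap. With DMSO it had 1, 0 and 2 reads and with RX-5902 2, 1 and 3 reads, so a change was not detectable at this depth. The co-receptor LY96 also fell in the knockdown, by 1.49 ± 0.28 in log2 from a mean of 1.32 to 0.472 CPM (adjusted p = 0.00217), and had 0 to 3 reads per library in the other experiment. TLR4, the signalling partner, had means of 11.6 CPM in shControl and 13.6 in shDDX5, a log2 change of 0.21 ± 0.12 (adjusted p = 0.168). It was called as risen without shDDX5 replicate 1 (0.29, adjusted p = 0.00712) and with the length correction (0.41, adjusted p = 0.00593). With RX-5902 TLR4 rose by 1.56 ± 0.18, from 1.35 to 4.10 CPM. TLR2 had 1 to 8 reads per library and was not tested.

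The calprotectin genes S100A8 and S100A9, both on chromosome 1, fell in both experiments. S100A8 (ENSG00000143546.10, chr1:153390032-153391073) was at 182, 174 and 186 CPM in shControl and at 135, 83.7 and 86.4 CPM in shDDX5, a fall of 0.85 ± 0.17 in log2, or 1.80-fold (adjusted p = 0.00293). S100A9 (ENSG00000163220.11, chr1:153357854-153361023) was at 590, 644 and 691 CPM in shControl and at 322, 205 and 243 CPM in shDDX5, a fall of 1.34 ± 0.15, or 2.54-fold (adjusted p = 0.000169). For both, shDDX5 replicate 1 was the highest of its group and still lay under every shControl library. With RX-5902, S100A8 went from 7.64, 7.68 and 7.02 CPM to 5.19, 4.00 and 5.52 CPM, a fall of 0.64 ± 0.12, or 1.56-fold (adjusted p = 1.69e-05). S100A9 went from 114, 107 and 103 CPM to 75.8, 72.2 and 76.3 CPM, a fall of 0.57 ± 0.04, or 1.48-fold (adjusted p = 4.75e-13). Per kilobase, S100A9 exceeded S100A8 5.54-fold in shControl, 3.96-fold in shDDX5, 22.6-fold with DMSO and 24.1-fold with RX-5902 (SD 0.426, 0.357, 0.880 and 3.50, n = 3).

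S100A12, whose product is a further calcium-binding protein of phagocytes, was at 8.03, 7.43 and 5.62 CPM in shControl and at 2.25, 1.09 and 2.01 CPM in shDDX5, a fall of 1.99 ± 0.25 in log2 (adjusted p = 0.000290). It had 3 to 8 reads per library in the compound experiment and was not tested there. Some other S100 genes rose. In the knockdown S100A11 rose by 1.50 ± 0.17, from a mean of 267 to 766 CPM, and S100P by 0.99 ± 0.19. In shDDX5, S100A11 lay at 1008, 649 and 642 CPM and S100P at 75.0, 43.3 and 47.4 CPM, so replicate 1 raised both means. On leaving out each library in turn the rises were at least 1.27 and 0.73. S100P fell by 0.43 ± 0.11 with RX-5902, a call lost against a fold of 1.2 (adjusted p = 0.0604). With RX-5902 S100A10, whose protein binds annexin A2, rose by 0.85 ± 0.04, and its knockdown change was 0.02 ± 0.14 (adjusted p = 0.901), or -0.17 without shDDX5 replicate 1 (adjusted p = 0.00290). In the list of S100 and PYHIN relatives without the members, 4 of 10 tested genes rose and 3 fell in the knockdown (median log2 change 0.08). Of all genes tested there, 28.4% rose and 28.3% fell. In the compound experiment 7 of 9 rose and 1 fell (median 0.73, against 0.01 over all genes), where 32.2% of all genes rose and 31.9% fell.

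Among the 10 genes, those with short exons lay higher in shDDX5 replicate 1 than in replicates 2 and 3, by 0.67 in log2 for S100A8 (891 exon bases), 0.53 for S100A9 (573), 0.44 for FCGR1A (2155), 0.42 for CD14 (1647), 0.26 for MNDA (2025) and 0.18 for LYZ (1724). Within these 6 the order was not that of length. The long genes lay lower, with -0.30 for ITGAM (5688 bases), -0.18 for CSF1R (5151) and -0.14 for ITGAX (7076), except CD36 (10880) at 0.00. Without this library all 10 calls and directions held, with a fall of 1.09 for S100A8 and of 1.52 for S100A9. After a per-library trend on exon length had been removed, all 10 were again called in the same directions, with changes of -1.19 for S100A8, -1.70 for S100A9 and 0.28 for FCGR1A.

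**Figure D4:**
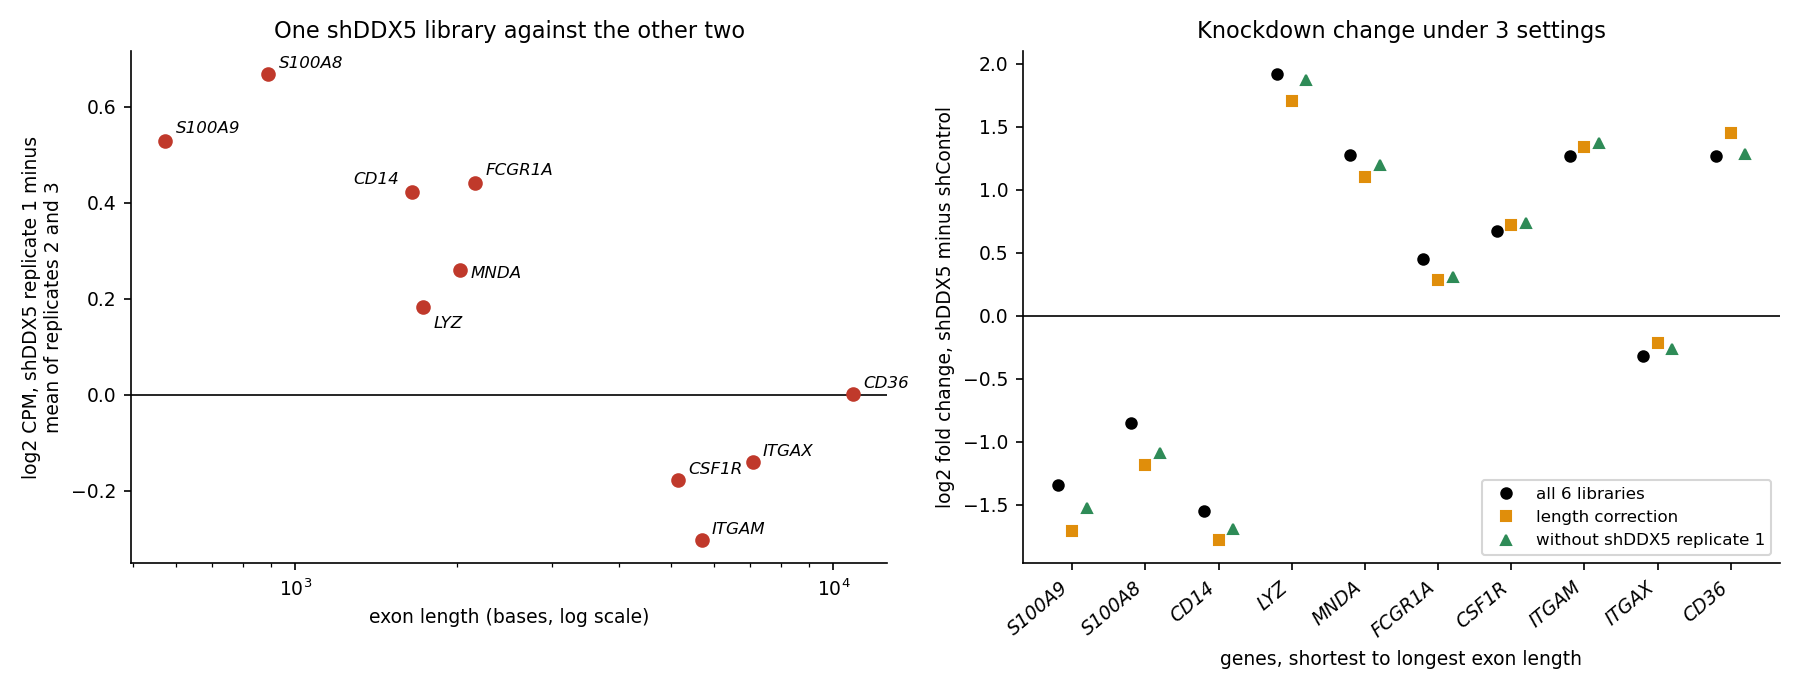
Left, the log2 CPM of shDDX5 replicate 1 minus the mean of replicates 2 and 3 (vertical axis) against exon length (horizontal log axis) for the 10 genes; right, the knockdown log2 fold change with all 6 libraries, with the length correction and without that library. The shortest genes, S100A8 and S100A9, lie 0.67 and 0.53 higher in this library, and no gene changes sign on the right.

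A test of the difference between the 2 changes, over all 12 libraries with 4 group means, called 7 of the 10 genes, against 52.7% of 15386 genes tested. The knockdown change exceeded the compound change by 2.45 ± 0.11 in log2 for LYZ (adjusted p = 7.86e-10), 1.88 ± 0.12 for MNDA (1.55e-08), 0.47 ± 0.10 for CD36 (0.00139) and 0.42 ± 0.14 for FCGR1A (0.0224). It was below the compound change for ITGAX, at -2.16 ± 0.11 (adjusted p = 2.17e-09), for S100A9, at -0.79 ± 0.18 (0.00174), and for CD14. The CD14 value of -2.42 ± 0.89 (adjusted p = 0.0340) rests on at most 3 reads in each compound library, and its call was lost without DMSO replicate 1 or 2 or RX-5902 replicate 1 or 3 (0.0655 to 0.153). The FCGR1A call was lost with the length correction (0.22, adjusted p = 0.0549), with that correction and the replicate block (0.101), and against a fold of 1.2 (0.107). For ITGAM the difference was -0.01 ± 0.12 (adjusted p = 0.939), for CSF1R 0.21 ± 0.11 (0.115) and for S100A8 -0.23 ± 0.25 (0.474). Without shDDX5 replicate 1 the last 2 were called, at 0.29 for CSF1R (adjusted p = 0.00334) and -0.46 for S100A8 (0.00130). These differences compare 96 hours after infection with 6 hours of compound, so time and treatment cannot be told apart.

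The 2 control groups differed widely before any treatment is considered. All shControl libraries lay above all DMSO libraries for each of the 10 genes, as they did for 36.0% of 15386 genes, and the 2 groups did not overlap in either direction for 70.8%. The ratio of the means was 24.2 for S100A8, 9.40 for LYZ, 8.14 for ITGAX, 6.86 for ITGAM, 5.95 for S100A9, 4.99 for CD36, 2.94 for CSF1R, 1.72 for MNDA and 1.30 for FCGR1A, and CD14 had 420 reads in total in shControl and 3 with DMSO. After its rise with RX-5902, ITGAX had a mean of 35.2 CPM, still below its lowest library in the knockdown experiment, at 60.1 CPM. No test was made, because infection, time in culture and experiment cannot be told apart. Ordered by mean, the groups ran shDDX5, shControl, RX-5902, DMSO for ITGAM, CD36, CSF1R and FCGR1A, and shDDX5, shControl, DMSO, RX-5902 for LYZ and MNDA. They ran shControl, shDDX5, DMSO, RX-5902 for S100A8 and S100A9 and shControl, shDDX5, RX-5902, DMSO for ITGAX and CD14. Neighbouring groups in these orders overlapped only between RX-5902 and DMSO, for FCGR1A and CD14.

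Between genes, levels can be compared per kilobase of exon. LYZ was the first and S100A9 the second in all 4 groups, at 1997 and 1120 CPM per kilobase in shControl and 7664 and 448 in shDDX5. With DMSO they stood at 212 and 188 CPM per kilobase, so their gap was narrow, and with RX-5902 at 150 and 131. MNDA took the third place in every group but shControl, where S100A8 took the third place at 202 CPM per kilobase, and with RX-5902 S100A8 took the sixth place at 5.51. CD14 was the lowest per kilobase in every group but shControl, where CD36 was lowest at 3.43 and CD14 next at 4.24.

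For each gene with a mean of at least 5 CPM, the most similar of 9479 protein-coding genes over the 12 libraries was named by Pearson's r of log2 CPM, as a description. The largest r values partly carry the gap between the experiments. They were 0.999 for LYZ with LIPA (lysosomal acid lipase), 0.999 for CD36 with SLC17A5 (a lysosomal sialic acid exporter), 0.999 for MNDA with GNPDA1 (an enzyme of glucosamine metabolism) and 0.998 for ITGAM with CASK (a scaffold protein). The others were 0.996 for S100A8 with CDC42EP3, 0.995 for CSF1R with SLC43A2, 0.993 for ITGAX with PHLDA1, 0.992 for FCGR1A with UQCRC1 and 0.991 for S100A9 with ADA2, an extracellular adenosine deaminase. LIPA followed LYZ with smaller steps, at means of 146, 283, 51.1 and 43.1 CPM in shControl, shDDX5, DMSO and RX-5902.

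The wider pathway was described with 99 further genes in 5 lists, of which 78 were tested in the knockdown and 69 with RX-5902. In the knockdown 55 of the 78 were called, 34 as risen and 21 as fallen, against 56.7% of all genes. With RX-5902 55 of the 69 were called, 29 as risen and 26 as fallen, against 64.1%. The counts of each list below are to be read against the same shares. Among receptor partners and ligands, 4 of 12 tested genes rose and 5 fell in the knockdown (median log2 change 0.13), and 6 of 11 rose and 2 fell with RX-5902 (median 0.38). Among other monocyte and macrophage genes, 11 of 29 rose and 7 fell in the knockdown (median 0.20), and 10 of 22 rose and 8 fell with RX-5902 (median 0.03). Members of this list moved strongly in both directions. In the knockdown MS4A7, a macrophage membrane protein, rose by 1.18 ± 0.08, while AIF1, an actin-binding protein of macrophages, fell by 1.77 ± 0.13 and the fractalkine receptor CX3CR1 by 2.92 ± 0.22, from a mean of 7.61 to 1.00 CPM. With RX-5902 the co-stimulatory ligand CD86 rose by 1.65 ± 0.07, from 9.89 to 31.9 CPM, the inhibitory receptor LILRB4 rose by 0.60 ± 0.04, and the matrix proteoglycan VCAN fell by 0.79 ± 0.05. LILRB4 also rose in the knockdown, by 1.40 ± 0.11. AIF1 fell with RX-5902 too, by 0.41 ± 0.05, and MS4A7 by 0.23 ± 0.06, while CX3CR1 rose by 1.15 ± 0.21. The MS4A7 call was lost against a fold of 1.2 (adjusted p = 0.732). VCAN had a knockdown change of 0.60 ± 0.24 (adjusted p = 0.0613), and was called as risen without shDDX5 replicate 1 (0.86, adjusted p = 4.15e-17).

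The remaining lists held monocyte transcription factors and immature myeloid genes. Of 15 tested factors, 10 rose and 1 fell in the knockdown (median 0.44), and 3 rose and 7 fell with RX-5902 (median -0.13). IRF8, a factor that directs progenitors towards monocytes and dendritic cells, rose by 0.90 ± 0.08 in the knockdown and fell by 1.31 ± 0.04 with RX-5902, from a mean of 525 to 217 CPM. EGR2 rose by 1.58 ± 0.08 and CEBPB by 1.37 ± 0.16 in the knockdown, and CEBPD fell by 0.85 ± 0.07 and EGR1 by 0.97 ± 0.08 with RX-5902. CEBPD and EGR1 rose in the knockdown, by 1.51 ± 0.20 and 0.57 ± 0.07. For CEBPB and CEBPD shDDX5 replicate 1 was the highest of its group. Their rises were at least 1.16 and 1.23 on leaving out each library in turn. CEBPB rose with RX-5902 as well, by 0.84 ± 0.09, and EGR2 was not called there. Of 12 tested immature myeloid genes, 5 rose and 5 fell in the knockdown (median -0.02), and 3 rose and 8 fell with RX-5902 (median -0.53). The leukemic self-renewal factors MEIS1, HOXA10 and HOXA9 fell in the knockdown, by 2.73 ± 0.12, 2.01 ± 0.11 and 1.62 ± 0.11. The progenitor granule proteases PRTN3 and ELANE rose there, by 2.28 ± 0.18 and 2.11 ± 0.20. Again shDDX5 replicate 1 was the highest of its group for both, and the rises were at least 2.04 and 1.86 on leaving out each library. With RX-5902 these proteases fell by 1.45 ± 0.04 and 0.93 ± 0.04, and the progenitor factor MYB by 0.77 ± 0.04. MYB rose by 0.41 ± 0.09 in the knockdown. MEIS1, HOXA10 and HOXA9 rose with RX-5902, by 0.39 ± 0.05, 0.22 ± 0.06 and 0.47 ± 0.05. The HOXA10 call was lost without DMSO replicate 2 (adjusted p = 0.0542) and against a fold of 1.2 (0.774). The stem cell genes CD34, KIT and PROM1 had too few reads to be tested.

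**Figure D5:**
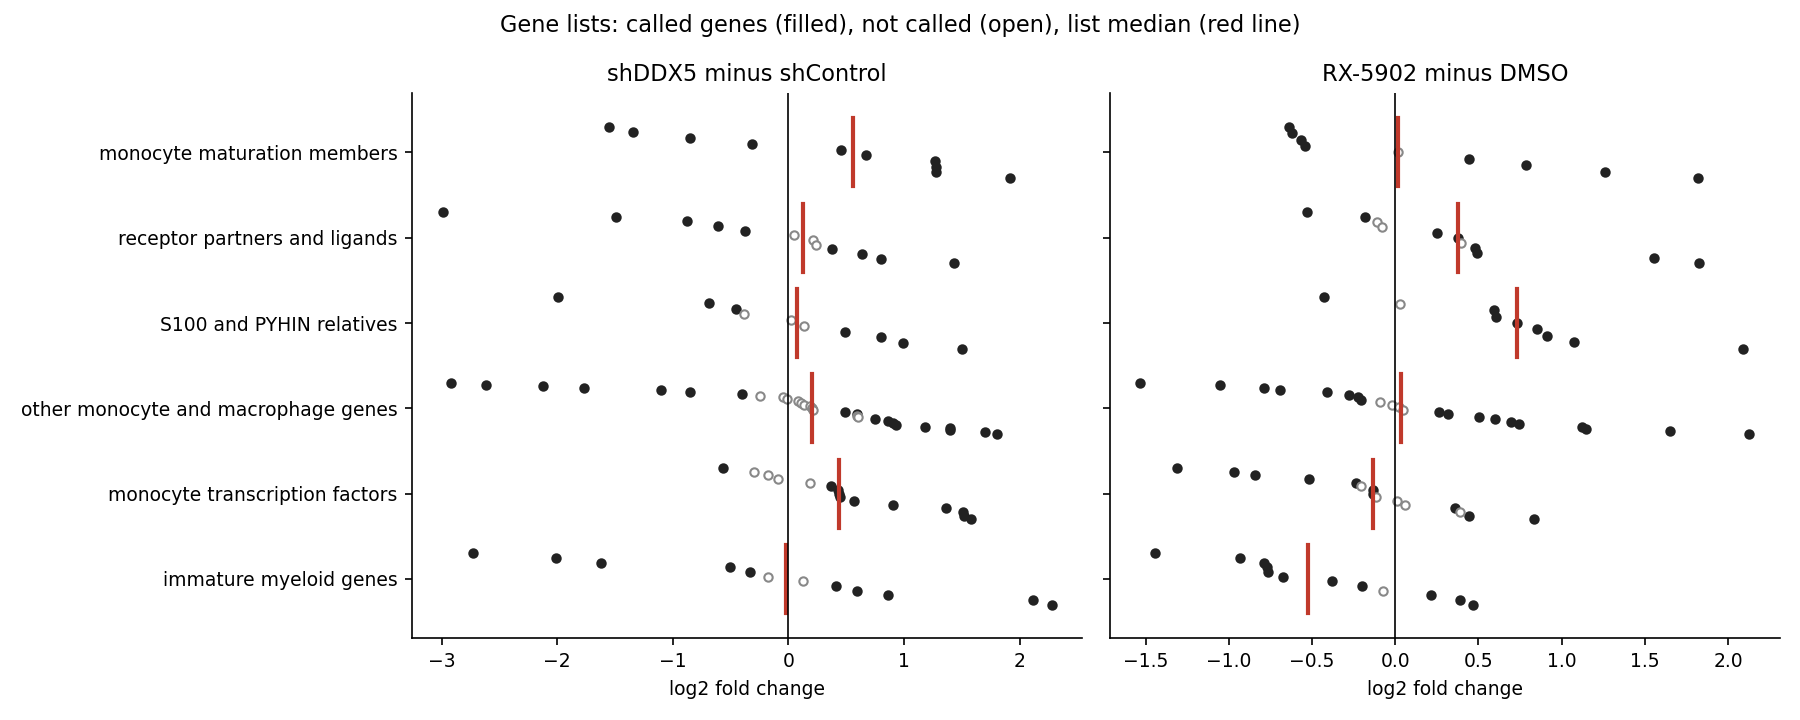
Log2 fold change (horizontal axis) of every tested gene of the 10 described genes and of 5 further lists, in the knockdown (left) and with RX-5902 (right), with filled points for called genes, open points for others and a red line for the list's median. The transcription factors have a median of 0.44 in the knockdown and -0.13 with RX-5902, and every list holds called genes on both sides of 0.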

How the data were processed

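RNA-seq count tables were used, 1 for each experiment, with 1 column per library. The values are raw read counts per gene, which the authors deposited without normalization. The submitters' processing notes list the build GRCh38.p13, the aligner STAR 2.7.9a, trimming by Trim Galore 0.6.7, Subread 2.0.3 with featureCounts, Picard 2.8.0, and DESeq2 1.46.0 under R 4.4.2. Not given in the sources used here were the annotation release, the strand setting and the treatment of reads with several matches, so reads of overlapping genes may be mixed. Per the labels' protocols, library preparation used an MGIEasy Fast RNA kit. Short-transcript excess in a library can shift the counts of short genes such as S100A8 and S100A9.

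A gene line that was wrapped over several lines in both tables was rejoined. Symbols were matched for 59984 of 61906 genes by versioned identifier and for 1819 without the version. The 6 libraries of an experiment were fitted together in edgeR 4.0.16 (R 4.3.3, limma 3.58.1), with the default expression filter, TMM scaling and the two-sided quasi-likelihood F test, and a gene was called under 0.05 after Benjamini-Hochberg adjustment across the tested genes. The standard error of a log2 change was derived from its F statistic. CPM values use 1 TMM scale over the 12 libraries. On simulated counts with 200 genes changed 2-fold, 78.5% were recovered in the knockdown design, 88.5% in the compound design and 65.0% in the test of the difference, with 3.68, 5.85 and 1.52% of calls false. The simulation gave every other gene 1 mean over all groups and held no length trend. Far more genes were called in the data, so these rates do not give the error there.

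The 10 genes, the 5 further lists and the 8 lists of other cell types' markers were chosen with earlier results of these data known. Named beside the 10 genes were DDX5, up to 3 called genes with the smallest p from each list in each experiment, direct partners of the 10 genes, and the most similar gene of each. Values of some of these genes in the experiment that had not named them, and FCGR1BP, FCGR1CP, H2BC18, CD34, KIT, PROM1, NKG7, CD3D, GNLY, MMP9, KRT8, COL1A1 and the marker genes at 0, were added after values were seen. Alternatives were DESeq2 1.42.0, other size factors, other filters, a test against a fold of 1.2, 1 fit of all libraries, a length correction, a replicate block and leaving out each library.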

Additional observations from a re-analysis of the deposited data

Results flagged for a closer look

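The genes below stood out because the test of the difference itself found that their log2 change in the knockdown and their log2 change with RX-5902 were unequal, among genes tested in both experiments (edgeR, adjusted p under 0.05, as for 52.7% of all genes tested). Each value is the knockdown change minus the RX-5902 change. The experiments differ in time, infection and agent, which cannot be told apart. Among the monocyte maturation genes these were 2.45 for LYZ, -2.16 for ITGAX, 0.47 for CD36, 1.88 for MNDA, 0.42 for FCGR1A and -0.79 for S100A9. CD14, at -2.42, also passed the test of the difference but was too low to be tested with RX-5902. Most other genes named in the report were picked for a small p in 1 experiment, so unequal changes are partly built into that list. Its counts are therefore not to be set against the share of all genes. CEBPB and FCER1G, also named and tested in both experiments, did not pass. Among the partners and list genes named in the report, the difference was positive for 14, with 3.71 for PRTN3, 3.04 for ELANE, 2.34 for CEBPD, 2.20 for IRF8, 1.76 for EGR2, 1.52 for EGR1, 1.46 for S100A11, 1.40 for S100P, 1.39 for MS4A7, 1.37 for VCAN, 1.16 for MYB, 1.04 for TYROBP, 0.88 for ITGB2 and 0.79 for LILRB4. It was negative for 14, with -4.08 for CX3CR1, -3.40 for FCGR2B, -3.14 for MEIS1, -2.80 for AIM2, -2.24 for HOXA10, -2.10 for HOXA9, -1.68 for CD86, -1.37 for AIF1, -1.37 for TLR4, -1.15 for ITGAL, -1.12 for FYN, -1.04 for ICAM1, -0.84 for S100A10 and -0.44 for IFI16.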

How the results depend on the processing

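The knockdown call count of the monocyte maturation genes lay between 8 and 10 over all alternatives, against 10, and between 8 and 10 when each library was left out in turn. The RX-5902 count was 8 in every alternative run. The count for the difference lay between 6 and 8 over the alternatives and between 6 and 9 on leaving out libraries, against 7. Over single results for these genes, 495 kept their call status, 14 lost and 5 gained a call. No change that was called in either fit reversed. Uncalled changes near 0 could switch sign, as the ITGAM difference did, from -0.01 to 0.10 without shDDX5 replicate 1. S100A10 in the knockdown reversed from 0.02 to -0.30 with the length correction, to -0.30 with the length correction and replicate block, and to -0.17 without shDDX5 replicate 1, within a range of -0.17 to 0.12 on leaving out each library. With RX-5902, the number of other pathway genes called as fallen was 17 when tested against a fold of 1.2, against 26, since that test asks for a larger change. The levels of CD36 moved to 89.3 CPM in shDDX5 and 7.70 CPM with DMSO on TMM scales made within each experiment. The labels do not say whether equal replicate numbers pair the libraries. The correlation of same-numbered deviations was -0.03, -0.07 and 0.03 in the knockdown and -0.03, 0.02 and -0.04 in the compound experiment. Libraries of unequal number reached 0.08 in the knockdown. With 3 libraries per group, these values cannot decide whether the libraries were paired. With a replicate block, 10 of the genes were called in the knockdown, 8 with RX-5902 and 7 for the difference, and over all genes 7592 instead of 8204 and 8696 instead of 8943 were called in the experiments. Depth limits CD14, LY96, S100A12 and TLR2 in the compound experiment, where a few reads per library allow no test.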
